A study of Mus musculus with 8 samples.

Results

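The 10 genes described here build the contacts through which heart muscle cells pull on and signal to each other. Gja1, Gja4, Gja5 and Gjc1 encode connexins, Dsp, Pkp2, Jup, Dsg2 and Dsc2 encode desmosome proteins, and Cdh2 encodes N-cadherin. They were taken by gene symbol, without use of any measured value. All 10 had a row among the 30445 genes of the deposited table, and all 10 were among the 17787 genes that passed the filter on low counts. Poly(A) RNA came from C57 mouse hearts taken 8 weeks after transverse aortic constriction (TAC), an operation in which the aorta is tied narrower so that the heart pumps against a higher pressure. By label there were 4 wildtype libraries and 4 libraries named Mertk knockdown, where Mertk is a receptor by which macrophages take up dying cells. Both groups had TAC, and no unoperated heart was analysed here. The labels give no age or sex of the mice, no chamber of the heart, no method or cell type of the knockdown, and do not say whether replicates came from different animals. The p-values accordingly rest on the spread among these libraries, which may in part be technical.

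Cardiac muscle cells meet end to end at the intercalated disc. There, gap junctions made of connexins pass current from cell to cell, desmosomes tie the intermediate filaments of neighbouring cells together, and N-cadherin holds the adherens junctions to which the contractile filaments attach. Connexin 43 is the main connexin of the working ventricle, connexin 40 belongs to atrial muscle, the conduction system and arterial endothelium, and inherited defects of desmosome genes cause arrhythmogenic cardiomyopathy.

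Mertk, the targeted gene, showed no lower level in the group that carries its name. It measured 11.02, 10.39, 10.5 and 12.29 CPM (counts per 1e+06 counts of the library, its total scaled by TMM) in wildtype replicates 1 to 4. In the labelled group it measured 12.79, 12.31, 10.58 and 11.78 CPM. The difference on the log2 scale was 0.10 with an SE of 0.11 (edgeR adjusted p = 0.7663). The counts of the whole gene thus did not bear out the label, and each direction given here follows the label alone. Total counts ran from 59287621 to 71571173 per library. All 10 cardiomyocyte markers were detected in every library. Their sum was 39890 to 52770 CPM in wildtype and 55290 to 62860 CPM in the labelled group. Myh6 on this list had the largest estimate (log2 fold change 0.74), with 8207 to 16010 and 16870 to 20920 CPM. Tnnt2 was below 0 (-0.125), and the others were above 0, the smallest being Tnnc1 (0.10). None of the 10 passed, so the sums do not stand for each marker. Markers of other tissue marked some libraries. The 16 hepatocyte markers summed to 324.2 CPM in wildtype replicate 1 and 259.6 to 329.2 CPM in the labelled group, against 52.22 to 63.81 CPM in wildtype replicates 2 to 4. Atrial transcripts stood out in wildtype replicates 3 and 4 and in labelled replicate 4, as described beside Gja5. These are hearts in bulk, so fewer cells of a type and less RNA per cell cannot be told apart.

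None of the 10 junction genes passed the test between the groups. With edgeR, 0 of 10 were called at an adjusted p under 0.05, where 0.647% of all tested genes were called. At an unadjusted p under 0.05 there was 1 of 10, Gja1, against 12.4% of all tested genes in either direction and 6.11% higher. DESeq2 called 0 of 10 (3.73% of genes) and limma on log2(FPKM + 1) called 0 of 10 (0.394% of genes). The values of the groups overlapped for all 10 genes, while 8.07% of tested genes did not overlap. Log2 fold changes were above 0 for 5 members and below 0 for 5. Their median was 0.0021, and that of all tested genes was -7e-04. For 7 of the 10 the 95% interval of the fold change lay within 1.5-fold in either direction, as it did for 44.7% of all tested genes. The 3 others were Gja1, Gja4 and Gja5, whose intervals also hold changes beyond 1.5-fold.

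**Figure D1:**
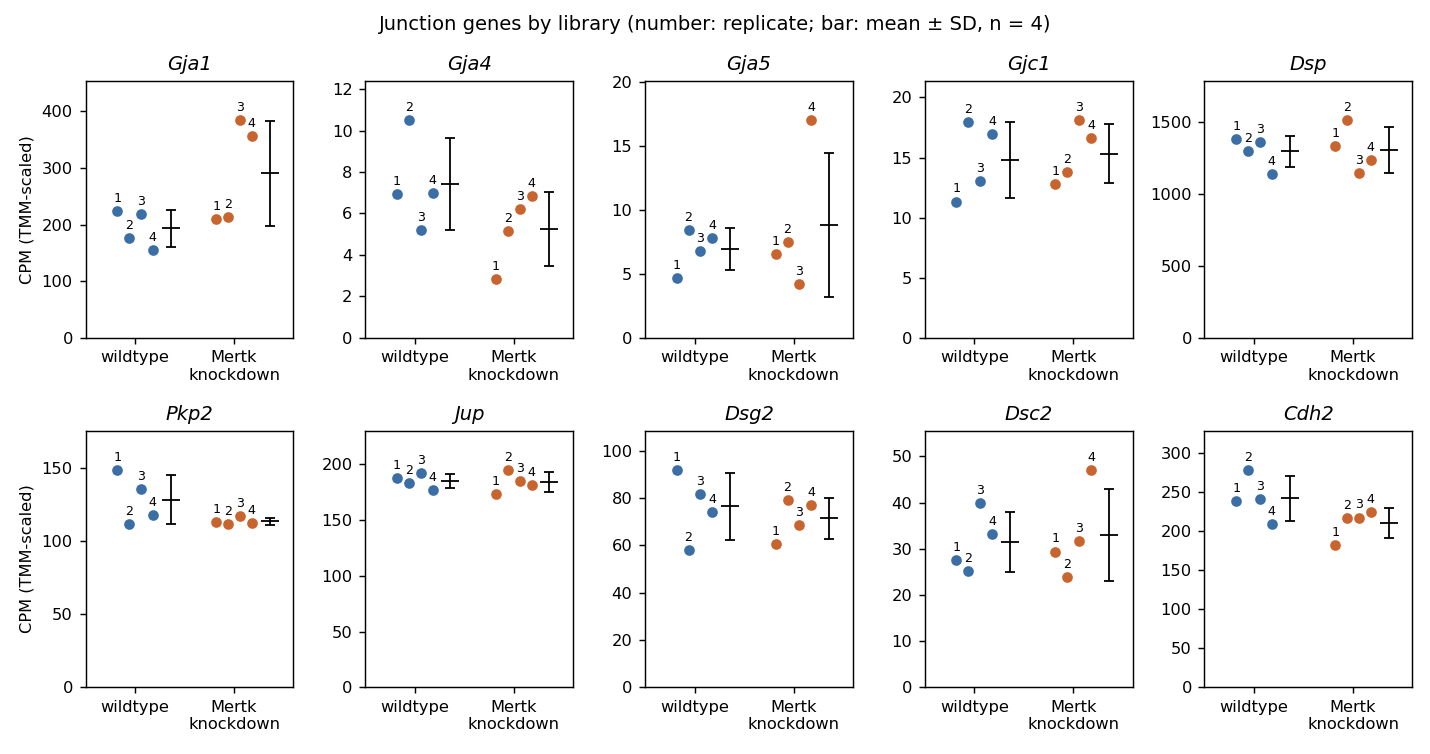
CPM (y axis, from 0) of each of the 10 junction genes in the 4 wildtype (blue) and 4 labelled Mertk knockdown (orange) libraries, numbered by replicate, with the mean ± SD of each group (n = 4) as a bar. Gja1 is at 384.5 and 356.8 CPM in labelled replicates 3 and 4 and between 154.6 and 223.5 CPM in all others, while Jup stays between 173.6 and 195 CPM throughout.

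**Figure D2:**
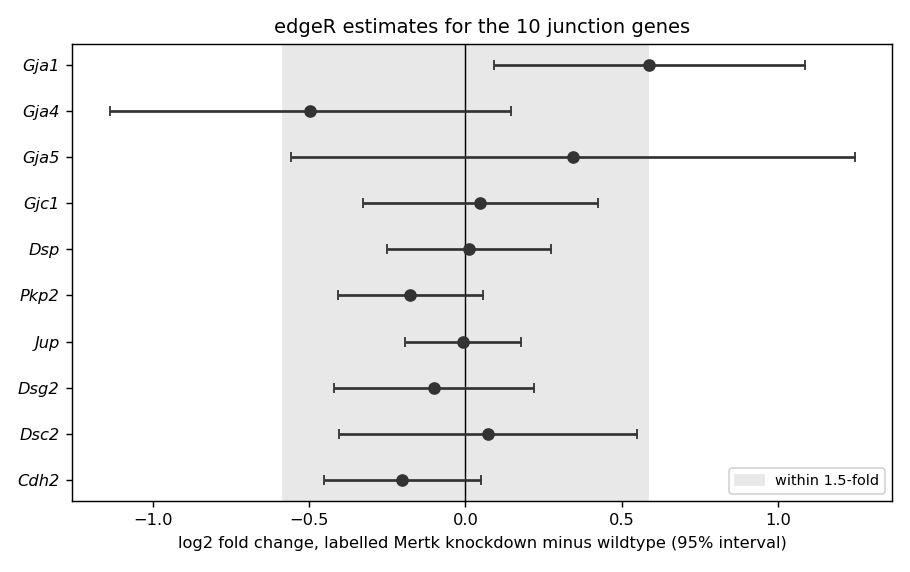
Log2 fold change of each junction gene, labelled Mertk knockdown minus wildtype, from edgeR (points) with its 95% interval (bars). Grey marks changes within 1.5-fold, and the intervals of Gja1, Gja4 and Gja5 are the 3 that reach beyond it.

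Gja1 encodes connexin 43, which carries most of the current between ventricular muscle cells (chromosome 10, 56377330 to 56402513, plus strand, mm10). It measured 223.5, 176.7, 218.3 and 154.6 CPM in wildtype replicates 1 to 4. In labelled replicates 1 to 4 it measured 209.1, 212.5, 384.5 and 356.8 CPM. Labelled replicates 1 and 2 thus lay inside the wildtype range, and replicates 3 and 4 lay above every other library. The group means were 193.3 ± 33.2 and 290.7 ± 93 CPM (SD, n = 4 each). This is a log2 fold change of 0.59 (SE 0.22; 95% interval from 0.09 to 1.09), with an edgeR adjusted p of 0.3147. DESeq2 gave 0.59 with an adjusted p of 0.0959. Without labelled replicate 3 the estimate was 0.43 and without labelled replicate 4 it was 0.48, and without either library no member reached an unadjusted p under 0.05. Among the 5 libraries with hepatocyte transcripts it was 0.39 (SE 0.39), a fit in which the spread of wildtype, with 1 library, is taken from the labelled group. With the summed cardiomyocyte markers as a covariate it was 1.16 (SE 0.40). Those sums did not overlap between the groups, so that fit can hardly separate the covariate from the label.

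The 250 bases before the start of each of the 3 connexin genes with the widest intervals are shown here, since these promoters belong to the members that varied most between libraries. They are from RefSeq (GRCm38.p6, the assembly of mm10), run 5′ to 3′ along the gene's strand, and lie outside every exon of GENCODE M21. Of the 10 members, 5 had an entry (Gja1, Gja4, Gja5, Dsp and Jup). Capitals mark matches, searched on both strands, to the AP-1 motif TGANTCA, the Sp1 motif GGGCGG, the TATA box TATAAA, the T-box motif AGGTGTGA, the NKX motif AAGTGG and the CCAAT box. None of the matches overlap.
Gja1 (chr10:56377050-56377299, plus strand): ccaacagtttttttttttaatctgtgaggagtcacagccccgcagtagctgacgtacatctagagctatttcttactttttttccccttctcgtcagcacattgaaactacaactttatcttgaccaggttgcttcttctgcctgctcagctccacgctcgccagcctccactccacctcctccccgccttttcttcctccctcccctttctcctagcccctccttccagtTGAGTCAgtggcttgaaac
Gja4 (chr4:127314040-127314289, minus strand): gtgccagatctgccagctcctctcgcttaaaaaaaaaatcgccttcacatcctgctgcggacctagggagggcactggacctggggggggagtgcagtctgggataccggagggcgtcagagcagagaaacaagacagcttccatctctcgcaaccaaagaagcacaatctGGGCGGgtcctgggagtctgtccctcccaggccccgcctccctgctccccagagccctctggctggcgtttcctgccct
Gja5 (chr3:97032152-97032401, plus strand): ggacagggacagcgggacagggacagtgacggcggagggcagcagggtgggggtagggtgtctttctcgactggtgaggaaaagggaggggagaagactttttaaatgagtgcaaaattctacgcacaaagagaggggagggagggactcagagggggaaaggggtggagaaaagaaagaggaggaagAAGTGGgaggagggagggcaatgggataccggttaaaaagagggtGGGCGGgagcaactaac
The Gja1 window held a single match, TGAGTCA, at bases -19 to -13 counted from the RefSeq start site, as are all positions here. For Gja1 that site lies upstream of the gene start in the deposited table (56377330). Among 32851 windows of the same length, 6.75% held TGANTCA. Gja4 held a single Sp1 match at -79 to -74. Gja5 held an Sp1 match at -17 to -12 and an NKX match at -62 to -57. The letters of Sp1 occurred in 32.7% of windows, those of NKX in 14.1%, TATAAA in 12.4%, CCAAT in 33.8% and AGGTGTGA in 1.12%. The Gja5 window lies inside the span that the deposited table gives that gene.

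Gja4 encodes connexin 37, a connexin of arterial endothelium (chromosome 4, 127311421 to 127314039, minus strand). Its levels were 6.955, 10.5, 5.187 and 6.993 CPM in wildtype replicates 1 to 4. The labelled libraries had 2.82, 5.135, 6.205 and 6.852 CPM. Wildtype replicate 2 was the highest and labelled replicate 1 the lowest, and the other 6 libraries lay within 5.135 to 6.993 CPM. Means were 7.409 ± 2.23 and 5.253 ± 1.77 CPM (SD, n = 4 each), a log2 fold change of -0.50 (SE 0.29; 95% interval from -1.14 to 0.15), with an edgeR adjusted p of 0.5405. Without wildtype replicate 2 it was -0.28, and in the 5 libraries without atrial transcripts it was -0.88 (SE 0.35, unadjusted p = 0.03963, adjusted p = 0.6939). Labelled replicate 1 held 187 counts of Gja4, so counting alone gives a coefficient of variation of 7.31% there. The 8 markers of arterial endothelium summed to 103.3 to 129.7 CPM in wildtype and 92.75 to 128.2 CPM in the labelled group. Among these markers Efnb2, an ephrin of arteries, had a log2 fold change of 0.39, and Sox17, an arterial transcription factor, of -0.68. Neither passed (edgeR adjusted p = 0.2934 and 0.3463). Sema3g had the smallest adjusted p on the list (log2 fold change -0.53, edgeR adjusted p = 0.1238). It measured 24.71 to 31.62 CPM in wildtype and 15.14 to 21.25 CPM in the labelled group, without overlap. Hey1 was also below 0 (-0.22), while Bmx, Dll4 and Mecom were above 0 (0.58, 0.33 and 0.13). The 10 general endothelial markers summed to 645.2 to 738 CPM in wildtype and 775.9 to 946.7 CPM in the labelled group, without overlap. Kdr, a receptor for vascular growth factor, and Cldn5, a tight junction protein, had the largest estimates among them (0.68 and 0.84, edgeR adjusted p = 0.07421 and 0.09422), and none of the 10 passed. Esam and Vwf on the same list were below 0 (-0.13 and -0.03), and its other markers were above 0. The part of endothelial content in the level of Gja4 was not tested.

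Gja5 encodes connexin 40 of atrial muscle, the conduction system and arteries (chromosome 3, 96904693 to 97077416, plus strand). It measured 4.684, 8.449, 6.766 and 7.781 CPM in wildtype and 6.514, 7.46, 4.199 and 16.99 CPM in the labelled group. Labelled replicate 4 stood above every other library, and labelled replicate 3 was the lowest of the 8. Means were 6.92 ± 1.64 and 8.792 ± 5.64 CPM (SD, n = 4 each), a log2 fold change of 0.35 (SE 0.40; 95% interval from -0.56 to 1.25), with an edgeR adjusted p of 0.7961. It turned to -0.19 without labelled replicate 4 and to -0.11 in the 5 libraries without atrial transcripts, a subset added after seeing the data. With the summed atrial markers other than Nppa (7 genes) as a covariate it was 0.41 (SE 0.18, unadjusted p = 0.04733, edgeR adjusted p = 0.419). It was 1.01 (SE 0.56) with the hepatocyte covariate and 0.92 (SE 0.82) in the 5 libraries with hepatocyte transcripts. The sign and size of the Gja5 estimate thus depended on the alternative.

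Labelled replicate 4 also held the most of 3 transcripts of atrial muscle. Sln, Myl7 and Myl4, which encode sarcolipin and atrial myosin light chains, summed to 605.6 CPM there, to 338.2 CPM in wildtype replicate 3 and to 189.2 CPM in wildtype replicate 4. The other 5 libraries held 0.8155 to 3.711 CPM of them, and Sln was listed at 0 in 4 of those 5. Over the whole list of 8 atrial markers, which includes Nppa, the sum was 893.6 to 3315 CPM in wildtype and 799.8 to 3036 CPM in the labelled group. Wildtype replicate 2 was highest on that list, with 2308 of its 3315 CPM from Nppa, the natriuretic peptide that loaded ventricles also make. Without Nppa, labelled replicate 4 was highest (1731 CPM) and the other 7 held 566.7 to 1129 CPM. Wildtype replicates 2, 3 and 4 held 1007, 1129 and 1068 CPM of these. Pam alone gave 546.3 to 1008 CPM of the sums without Nppa. Bmp10 on the list went the other way, at 0 in labelled replicate 4 and at 0.9716 and 11.89 CPM in wildtype replicates 3 and 4. Dkk3 was at 33.81 CPM in wildtype replicate 2 and at 34.27 CPM in wildtype replicate 3. The libraries called without atrial transcripts are those with under 10 CPM of Sln, Myl7 and Myl4, and wildtype replicate 2 is among them. The sum of the mesothelial markers was also highest in that library, at 32.49 CPM in labelled replicate 4 against 7.235 to 13.79 CPM in the other 7. Its largest part there was Upk3b (11.84 CPM). Wt1 on that list went the other way and was lowest there (3.111 CPM), while the rest were highest there. The 8 markers of the conduction system summed to 48.51 and 45.5 CPM in wildtype replicates 3 and 4 and to 27.41 CPM in labelled replicate 4. In the other 5 libraries they summed to 11 to 21.66 CPM. The part of atrial, conduction and mesothelial tissue in the level of Gja5 was not tested. The exons of Gja5 share 165 bases with Gpr89 on the opposite strand, so if strand was not used in counting, reads of the pair cannot be told apart there.

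**Figure D3:**
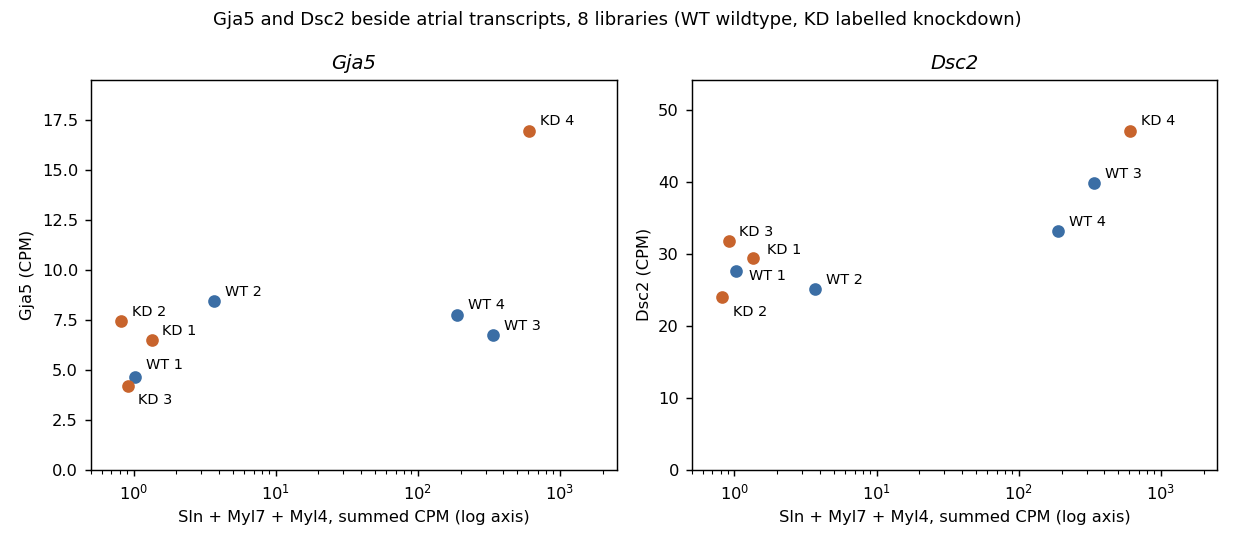
CPM of Gja5 (left) and Dsc2 (right) against the summed CPM of Sln, Myl7 and Myl4 (log axis) in the 8 libraries, wildtype in blue and labelled Mertk knockdown in orange. The 3 libraries with atrial transcripts (189.2 to 605.6 CPM on the x axis) have the 3 highest Dsc2 levels, and Gja5 is highest in labelled replicate 4.

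Gjc1 encodes connexin 45, a connexin of the nodes and of early heart muscle (chromosome 11, 102799579 to 102819179, minus strand). It measured 11.34, 17.95, 13.01 and 16.97 CPM in wildtype. In the labelled group it measured 12.77, 13.82, 18.11 and 16.6 CPM, within nearly the same range. The estimate of 0.05 on the log2 scale had an SE of 0.17 and a 95% interval from -0.33 to 0.42 (edgeR adjusted p = 0.9462). With the hepatocyte markers as a covariate it was 0.44 (SE 0.22, edgeR adjusted p = 0.6178). In the 5 libraries with hepatocyte transcripts, where wildtype is the lowest Gjc1 library alone, it was also 0.44 (SE 0.22).

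Within the 4 member connexins, Gja1 made up most of the transcripts per length. Gja3, at 3.454 to 4.689 FPKM over all libraries, is not a member and is left out of these shares. Of the summed FPKM (deposited fragment counts scaled to transcript length and library depth) of the 4 connexins, its share was 75.16, 60.44, 75.68 and 62.9% in wildtype replicates 1 to 4. In the labelled libraries it was 79.23, 74.48, 82.38 and 77.11%. The means were 68.55% ± 8.01 and 78.3% ± 3.34 (SD, n = 4 each), a difference of 9.754 percentage points, and the ranges overlapped. Gja4 took 16.08% ± 4.65 in wildtype and 8.631% ± 1.86 in the labelled group, with ranges of 10.92 to 21.86% and 6.484 to 10.95% that met at their edges. Gjc1 took 10.93% ± 2.93 and 8.77% ± 1.33, and Gja5 4.442% ± 1.25 and 4.299% ± 2.04. The summed FPKM of the connexins was 22.51 to 26.56 in wildtype and in labelled replicates 1 and 2 (22.8 and 25.27). It was 42.49 and 42.01 in labelled replicates 3 and 4, the libraries with high Gja1.

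**Figure D4:**
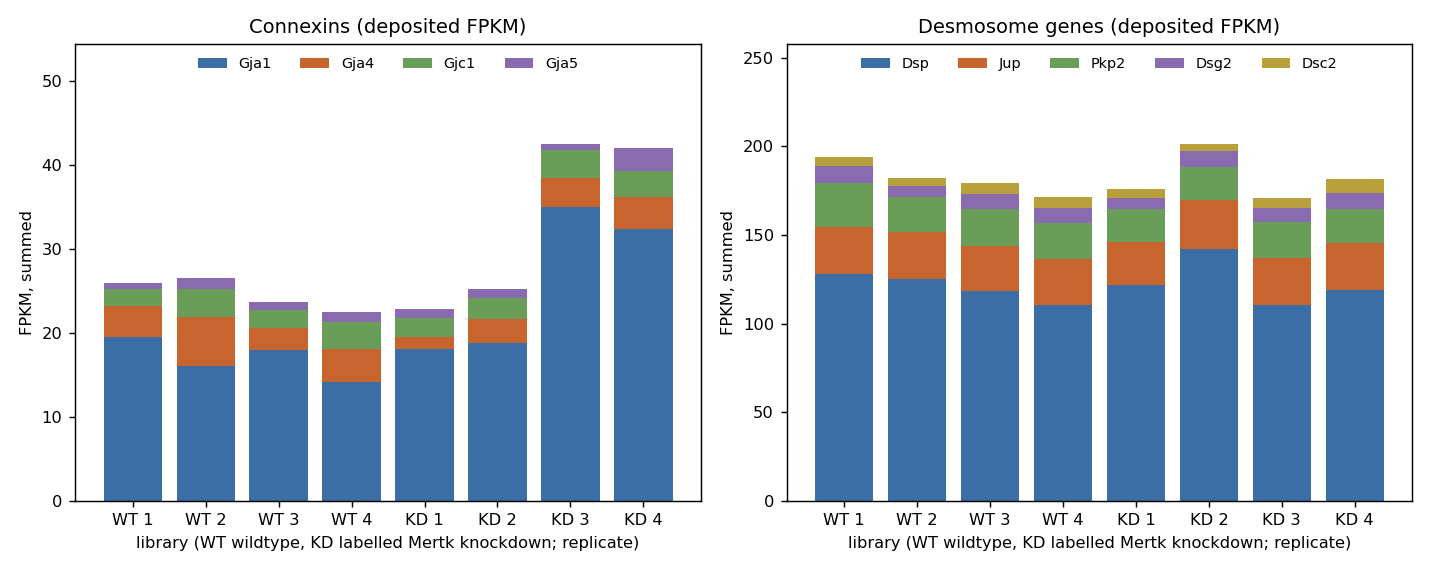
Deposited FPKM of the 4 connexin genes (left) and the 5 desmosome genes (right), stacked by gene for each library (WT wildtype, KD labelled Mertk knockdown). Connexin sums are 22.51 to 26.56 except in labelled replicates 3 and 4 (42.49 and 42.01), and desmosome sums run from 171 to 201.4 with Dsp as the largest part in each library.

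Among the desmosome genes, the 3 of the plaque had the smallest spread between libraries. Dsp encodes desmoplakin, which links the plaque to desmin filaments (chromosome 13, 38151294 to 38198577, plus strand). It measured 1381, 1300, 1358 and 1137 CPM in wildtype and 1330, 1511, 1141 and 1235 CPM in the labelled group. The wildtype range lay almost wholly inside that of the labelled group. The log2 difference of 0.01 had an SE of 0.12 and a 95% interval from -0.25 to 0.27 (edgeR adjusted p = 0.9838). Its exons share 499 bases with Gm10129 on the opposite strand.

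Jup encodes plakoglobin, the armadillo protein that desmosomes and adherens junctions share (chromosome 11, 100368958 to 100397749, minus strand). It measured 187.6, 183.1, 192 and 176.8 CPM in wildtype. The labelled libraries had 173.6, 195, 185.4 and 181.7 CPM, and the highest library was 1.12 times the lowest. The log2 fold change was -0.01 (SE 0.08), and the 95% interval of 0.8747-fold to 1.132-fold was the narrowest of the 10. Within groups the SD of log2 CPM of Jup was 0.06, and 0.776% of all tested genes had a smaller one.

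Pkp2 encodes plakophilin 2, which gathers desmoplakin at the plaque (chromosome 16, 16213318 to 16248489, plus strand). It measured 148.7, 111.8, 135.4 and 117.6 CPM in wildtype and 113.2, 111.9, 117 and 112.4 CPM in the labelled group. Wildtype replicates 1, 3 and 4 lay above all labelled libraries, replicate 4 narrowly, while wildtype replicate 2 lay at their lower edge. The means were 128.4 ± 16.8 and 113.6 ± 2.3 CPM (SD, n = 4 each; log2 fold change -0.18, SE 0.10, edgeR adjusted p = 0.5491). Without wildtype replicate 1 the estimate was -0.10, and with the hepatocyte markers as a covariate it was -0.39 (unadjusted p = 0.01578, edgeR adjusted p = 0.4218).

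Dsg2 and Dsc2 encode desmoglein 2 and desmocollin 2, the cadherins that bridge the gap between cells, and both lie on chromosome 18 (20558074 to 20604521, plus strand, and 20030633 to 20059554, minus strand). Dsg2 measured 91.83, 58.02, 81.8 and 74.18 CPM in wildtype and 60.45, 79.24, 68.69 and 76.87 CPM in the labelled group. The labelled values all lay within the wildtype range (log2 fold change -0.10, SE 0.14, edgeR adjusted p = 0.8432). With the hepatocyte markers as a covariate the estimate was -0.34 (SE 0.20, edgeR adjusted p = 0.6654), and without wildtype replicate 1, the highest Dsg2 library, it was 1e-04. Its exons share 330 bases with the antisense gene Gm16090.

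Dsc2 measured 27.68, 25.1, 39.83 and 33.12 CPM in wildtype and 29.42, 23.95, 31.75 and 47.09 CPM in the labelled group. The 3 highest libraries were labelled replicate 4 and wildtype replicates 3 and 4, which are the 3 with atrial transcripts. In the other 5 libraries Dsc2 ran from 23.95 to 31.75 CPM. The part of atrial tissue in this order was not tested. The log2 difference of 0.07 had an SE of 0.21 and a 95% interval from -0.40 to 0.55 (edgeR adjusted p = 0.9332), and it was -0.14 without labelled replicate 4. Per length, the ratio of Dsg2 to Dsc2 FPKM was 1.311 to 2.121 in wildtype and 1.042 to 2.114 in the labelled group, so Dsg2 was the more abundant per length in all 8 libraries.

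Cdh2 encodes N-cadherin, the classical cadherin of the adherens junction (chromosome 18, 16588877 to 16809246, minus strand). It measured 238.4, 278.2, 241.5 and 209 CPM in wildtype. The labelled libraries had 182.5, 216.3, 217.3 and 224.3 CPM. Wildtype replicates 1 to 3 lay above all labelled libraries and wildtype replicate 4 lay among them. The means were 241.8 ± 28.4 and 210.1 ± 18.7 CPM (SD, n = 4 each; log2 fold change -0.20, SE 0.11, 95% interval -0.45 to 0.05, edgeR adjusted p = 0.5227). With the cardiomyocyte markers as a covariate the estimate turned to 0.08 (SE 0.21), in a fit that can hardly separate covariate and label. The ratio of Gja1 to Cdh2 in FPKM, chosen after its values were seen, was 0.7372, 0.4993, 0.7108 and 0.5817 in wildtype. In the labelled libraries it was 0.9009, 0.7726, 1.392 and 1.251, and the groups did not overlap. The other ratios of members that were computed all overlapped between the groups. How often ratios of any genes do not overlap was not computed.

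Ordered by mean FPKM over the 8 libraries, Dsp stood first with 122 ± 10.3 (SD, n = 8), above every other member in each library. Jup (26.02 ± 1.12), Cdh2 (25.46 ± 3.33), Gja1 (21.49 ± 7.75) and Pkp2 (20.47 ± 1.97) followed with overlapping ranges. Gja1 exceeded Pkp2 in 2 libraries only, labelled replicates 3 and 4. Dsg2 (8.106 ± 1.16) lay below Pkp2 with no overlap and above Dsc2 (5.542 ± 1.35) in all 8 libraries. Gja4 (3.432 ± 1.25) and Gjc1 (2.743 ± 0.557) overlapped, with Gja4 higher in 7 of 8. Gja5 was lowest at 1.245 ± 0.654 and lay below Gjc1 in each library.

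The members ranged widely in their spread between libraries. Within groups the SD of log2 CPM was 0.06 for Jup, 0.13 for Pkp2 and 0.15 for both Dsp and Cdh2. It was 0.24 for Dsg2, 0.28 for Gjc1, 0.36 for Dsc2 and 0.38 for Gja1, and it reached 0.50 for Gja4 and 0.65 for Gja5. Among all tested genes, 62.7% had a smaller SD than Gja1, 72.8% than Gja4 and 81.4% than Gja5. For Dsp, Cdh2 and Pkp2 these shares were 20.7, 21.1 and 15.4%. Gja4 and Gja5 had the lowest counts of the 10. Gja1 had 11387 counts or more in each library, where counting adds a coefficient of variation of at most 0.937%.

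**Figure D5:**
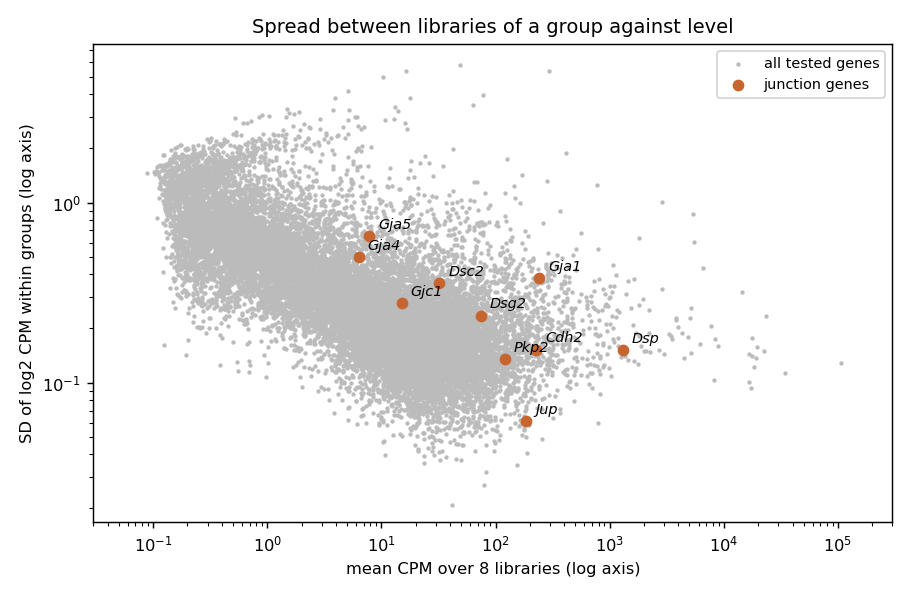
SD of log2 CPM between libraries of the same group (log axis) against mean CPM over the 8 libraries (log axis) for the tested genes (grey) and the 10 junction genes (orange, named). Jup lies near the lower edge at 0.06, and Gja1 lies above Cdh2, which has a like mean level.

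The genes whose library pattern was closest to the 3 most variable members were found by the root mean square difference in mean-centred log2 CPM over the 8 libraries, among 9607 genes of at least 5 CPM. For Gja1 they were Colq (0.096), Bahcc1 (0.139) and Spata13 (0.143). Each taken relative to its own geometric mean over the 8 libraries, Gja1 was at 1.664 and 1.544 in labelled replicates 3 and 4. Colq, the collagen-like tail of acetylcholinesterase, was at 1.604 and 1.403. None of these 3 genes passed the test between groups (edgeR adjusted p of 0.4304 to 0.5447). For Gja4 the closest were Snap91 (0.192), Tmem176b (0.216) and Birc3 (0.232). For Gja5 they were Olfm1 (0.274), Tbc1d1 (0.284) and Sumo2 (0.288), each highest in labelled replicate 4.

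Other genes of the junctions were read in 6 lists. Among the partners of the adherens junction, 0 of 12 tested genes were called by edgeR, and 2 were above and 1 below at an unadjusted p under 0.05, which 12.4% of all tested genes reached in either direction (median log2 fold change 0.00). Afdn encodes afadin, which ties nectins to actin. It measured 54.51 to 72.01 CPM in wildtype and 79.23 to 107.7 CPM in the labelled group. Its estimate of 0.51 on the log2 scale (SE 0.13) had an adjusted p of 0.1384 with edgeR and 0.01403 with DESeq2. Vezt, a catenin-binding membrane protein called vezatin, measured 36.51 to 51.14 and 29.96 to 35.31 CPM. Its estimate of -0.46 (SE 0.12) had an adjusted p of 0.153 with edgeR and 0.0409 with DESeq2. The alpha- and beta-catenins Ctnna1 and Ctnnb1 had log2 fold changes of -0.04 and 0.18, and neither passed.

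Of the other desmosome genes, 12 of 13 were in the table, 5 were tested and 0 were called by edgeR. All 5 had a log2 fold change below 0 (median -0.11), as did 8913 of all 17787 tested genes. The estimate nearest 0 was that of Pkp3, at -0.03 (SE 0.70) from 4 to 26 counts per library. Pkp4, a plakophilin relative found at both kinds of junction, measured 132.3 to 154.5 CPM in wildtype and 87.56 to 123.3 CPM in the labelled group. Its log2 fold change was -0.49 (SE 0.12, edgeR adjusted p = 0.1124; DESeq2 adjusted p = 0.009756). Ppl, the plakin periplakin, had -0.53 (SE 0.37, edgeR adjusted p = 0.6199). DESeq2 thus called Pkp4 and Vezt lower and Afdn higher, where edgeR called none of them.

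In the list of further intercalated disc genes, 0 of 20 tested genes were called by edgeR (median 0.00). Those with the smallest p were Cxadr, a cell adhesion receptor of the disc, and Des, the muscle intermediate filament that desmoplakin binds. Cxadr measured 24.56 to 29.13 CPM in wildtype and 30.07 to 34.75 CPM in the labelled group, and the groups did not overlap. Its log2 difference was 0.30 with an SE of 0.09 (edgeR adjusted p = 0.2). Des measured 2101 to 2424 and 1472 to 1987 CPM, with a log2 difference of -0.31 (edgeR adjusted p = 0.3059). The scaffold Tjp1, which borders gap junction plaques, had a log2 difference of 0.04 and did not pass. Of 15 genes of connexin trafficking and turnover, 0 were called (median 0.07). Cnst, consortin, which helps connexins reach the membrane, measured 39.56 to 46.88 and 50.52 to 64.03 CPM, with a log2 difference of 0.35 (edgeR adjusted p = 0.176). Wwp1, a ubiquitin ligase, had 0.17 (SE 0.09, edgeR adjusted p = 0.5054).

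Of 15 transcription factors linked to connexin genes, 1 was called higher and 0 lower by edgeR (median 0.09), where 0.275% of all tested genes were called higher. Jun, an AP-1 subunit (chromosome 4, 95049034 to 95052222), measured 59.23, 71.36, 52.97 and 65.03 CPM in wildtype. It rose to 92.54, 92.53, 106 and 137.9 CPM in the labelled group, by 0.79 on the log2 scale with an SE of 0.15 (edgeR adjusted p = 0.04712). The groups did not overlap, but the call was lost on leaving out any 1 of the 8 libraries (edgeR adjusted p of 0.0519 to 0.1205), while the estimate stayed between 0.65 and 0.87. Nkx2-5, a core cardiac factor that acts on Gja5, was level in all libraries at 31.9 to 34.37 CPM (edgeR adjusted p = 0.9914).

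Connexins outside the heart's usual set were scarce, with an exception. Of 19 other connexin and pannexin genes, 16 were in the table, 7 were tested and 0 were called by edgeR (median 0.15). Gjb1 and Gjb2 encode the connexins of hepatocytes. Gjb2 measured 0.5046 CPM in wildtype replicate 1, was listed at 0 in wildtype replicates 2 to 4, and measured 0.5798 to 1.159 CPM in the labelled group. Gjb1 measured 0.6623 CPM in wildtype replicate 1, 0 to 0.1041 CPM in wildtype replicates 2 to 4 and 0.3668 to 1.097 CPM in the labelled group. Both were thus higher in each of the 5 libraries with over 200 CPM of hepatocyte markers than in the other 3, and a count of 0 allows up to 0.0506 CPM in the shallowest library. Neither passed over all libraries (edgeR adjusted p = 0.4457 and 0.5374). Gjb2 passed the filter on low counts through the libraries where it was found, and without wildtype replicate 1 it would be set against wildtype libraries that are all at 0, so no test of it is read here. Panx2, a pannexin, had -1.07 (SE 0.41, edgeR adjusted p = 0.3103). The exception was Gja3, known as a connexin of the lens. It measured 3.454 to 4.125 FPKM in wildtype and 3.874 to 4.689 FPKM in the labelled group. These values overlap the range of Gja4 and lie above those of Gjc1 and Gja5. Its log2 difference was 0.15 (edgeR adjusted p = 0.5809).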

How the data were processed

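Poly(A) RNA of 8 heart libraries (4 wildtype, 4 labelled Mertk knockdown) was analysed from the authors' table of 30445 genes. Per the file headers, it holds deposited whole-number counts and deposited FPKM per library. Build mm10 and the tools StringTie 2.1.6, HISAT2 2.2.1, cutadapt 1.9, edgeR and DESeq2 are named in the submitters' processing notes. Their order and role, the annotation and the strand setting are not given in the sources used here.

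Counts were tested with edgeR 4.0.16 in R 4.3.3 (TMM, filterByExpr, glmQLFit with robust fitting, glmQLFTest, two-sided, no covariate), with Benjamini-Hochberg adjustment over 17787 genes and a threshold of 0.05. The SE is the size of the log2 fold change divided by the square root of F, and 95% intervals use the fit's degrees of freedom. A log2 fold change above 0 means higher in the libraries labelled Mertk knockdown. Levels across genes use FPKM. The floor of 3 counts covers counting error alone. Every pair of libraries within a group differed by more than sampling noise, with 37.89 to 198.7 for chi-square over its degrees of freedom.

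On simulated counts (17247 genes) edgeR called 12.3% of genes changed 1.5-fold, 46.3% of those changed 2-fold and 83.6% of those changed 4-fold, with 7 false calls among 97. Alternatives were DESeq2 1.42.0, RLE and upper quartile factors, no filter, limma 3.58.1 on log2(FPKM + 1) and log2(FPKM + 0.1), each library left out, the replicate number as a block, and hepatocyte and atrial adjustments. The atrial covariate was the summed atrial markers without Nppa. The cardiomyocyte covariate and the 5 libraries with under 10 CPM of Sln, Myl7 and Myl4 were added after seeing the data. The members and lists were chosen with earlier results of these data known. Named genes are the members, Mertk, from each list the called genes or else the 2 of smallest p, and the 3 closest in pattern to the 3 most variable members. Further genes are named with their values already known.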

Additional observations from a re-analysis of the deposited data

Results flagged for a closer look

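In the search for a library far from the rest of its group of 4 (a gap to its nearest neighbour above Dixon's 95% critical value), 70 groups of values were examined, and chance marks about 1 in 20. The 4 that stood out were all high values. Gjb2 was at 0.5046 CPM (32 counts) in wildtype replicate 1 and at 0 in the other 3 wildtype libraries. With those at 0, any value above 0 would be marked, so nothing is read from this mark. Hepatocyte markers summed to 324.2 CPM in the same library, against 52.22 to 63.81 CPM in the other 3. Atrial markers summed to 3036 CPM in labelled Mertk knockdown replicate 4, against 799.8 to 1032 CPM in the other 3. Mesothelial markers summed to 32.49 CPM in that library, against 10.65 to 13.79 CPM. None of the 10 junction genes had such a library: Gja5 in labelled replicate 4 stayed under the limit.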

How the results depend on the processing

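No junction gene was called under any of the 21 alternatives. All genes called by the main edgeR test numbered 115. The number was 604 with DESeq2, 70 and 69 with limma on log2(FPKM + 1) and log2(FPKM + 0.1), and 21 with limma and no filter. It was 42 in the 5 libraries with hepatocyte transcripts, 17 with the hepatocyte covariate, 71 with the atrial covariate, 1 with the cardiomyocyte covariate and 6 in the 5 libraries without atrial transcripts. Leaving out 1 library gave 44 (without labelled replicate 3) to 265 (without wildtype replicate 1). With the replicate block the number was 24 for all genes and 0 for the lists. Same-numbered libraries deviated together little (correlations of 0.062, 0, -0.006 and 0.181), so the numbers were not taken to pair them. In the 6 lists of other genes 1 gene (Jun) was called, where 0.647% of all tested genes were called. DESeq2 called 4 (Afdn, Jun, Pkp4 and Vezt), where it called 3.73% of all genes. The number was 0 with the limma fits, the hepatocyte and cardiomyocyte covariates and the libraries without atrial transcripts. Leaving out 1 library gave 0 to 1, the 1 being Gjb2 against wildtype libraries all at 0, which is no evidence of a change. Jun kept its call in 5 of 21 alternatives, with estimates of 0.58 to 0.95 over all 21. Gja1 was above 0 in all 21 (0.39 to 1.16) and Gja4 and Pkp2 were below 0 in all 21. Each other member changed sign in at least 1 alternative, without a call on either side: Gja5 and Dsc2 in 2, Cdh2 and Dsg2 in 1, Gjc1 in 4, Dsp in 6 and Jup in 10. The share of Gja1 among the member connexins differed by 9.752 points from counts per kilobase and by 7.051 to 12.133 points with 1 library left out. Why the counts moved was not tested. With 4 libraries a group, 12.3% of genes changed 1.5-fold were called in simulation.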
